A study of Homo sapiens with 4 samples.

Results

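The genes described here are 42 genes of the endoplasmic reticulum (ER) that fold secreted and membrane proteins, carry nascent chains into the organelle, sense unfolded protein and return failed protein to the cytosol for degradation. They were chosen by name, as a list of known functions, with earlier results of these data known. Each of the 42 symbols was found once among the 19739 genes of the coding table. By role, 12 are chaperones and cochaperones, 4 are the stress sensors with their effector XBP1, 9 belong to ER-associated degradation, 12 form and shuffle disulfide bonds and 5 belong to the translocon.

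RNA sequencing was done on 2 lines labelled as hepatocellular carcinoma, HepG2 and Huh7. Each line gave 1 library of untreated cells and 1 library of cells exposed for 24 h to RSL3@O2-ICG NBS plus low-frequency ultrasound. RSL3 is an inhibitor of the lipid peroxide reductase GPX4 that triggers ferroptosis, and ICG is the usual abbreviation of indocyanine green, a near-infrared dye; the labels do not spell out NBS. Cells given the ultrasound, the carrier or RSL3 alone were not analysed here, so a difference belongs to the whole combination. With 1 library in each of the 4 groups, there is no replicate spread and no test within a line, and every value below is that of a single library.

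The identity of the first line is uncertain. All 12 hepatocyte markers were under 1 FPKM (fragments per kilobase of transcript, scaled to library depth) in both libraries labelled HepG2. Of them, 9 and 8 were listed at 0, ALB and TTR among them, and their summed level was 0.528 and 0.429 FPKM. In Huh7 all 12 were at 1 FPKM or more, with sums of 2150 and 1980 FPKM. The name HepG2 is therefore used below only as a label. The 7 blood cell markers summed to 1.43 FPKM untreated and 21.0 FPKM treated under the HepG2 label, and to 19.9 and 6.91 FPKM in Huh7, with PTPRC and CD3E at 0 in all 4. Single genes carried most of these sums: CD68 stood at 1.38 and 20.7 FPKM under the HepG2 label, and CD14 at 15.1 and 2.21 FPKM in Huh7, where CD68 stood at 0.521 and 2.83 FPKM. The 7 fibroblast and stellate markers summed to 8.87 and 9.5 FPKM, and to 38.0 and 10.3 FPKM, with 2 or 3 of them at 1 FPKM or more in each library. The 6 endothelial markers summed to between 0.141 and 1.16 FPKM. The part of these markers in the results was not tested. The depth inferred from the smallest FPKM steps was 22900000 to 26400000 fragments per library.

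Proteins bound for secretion or for membranes enter the ER through the SEC61 channel and meet the HSP70 chaperone BiP, the lectin chaperones calnexin and calreticulin, and the protein disulfide isomerases. When unfolded protein builds up, the sensors IRE1, PERK and ATF6 are released from BiP. IRE1 splices the XBP1 messenger, ATF6 is cut in the Golgi to free a transcription factor, and PERK phosphorylates eIF2alpha, which slows translation and favours ATF4. Hepatocytes secrete most plasma proteins and have a large ER.

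XBP1 and ATF6 act through short promoter elements, and a selection of 10 is shown because the members can be grouped by such elements. RefSeq promoters (GRCh38.p14, 250 bases before to 50 after a gene's start) were present for 39 of the 42 members. The ER stress element ERSE was searched as CCAAT and CCACG with 9 bases of any kind between them, ERSE-II as ATTGG and CCACG with 1 base between them, the unfolded protein response element UPRE as TGACGTGG and the ATF4-type element CARE as TGATGNAA, on both strands. Elements of this kind were first described in promoters of such chaperone genes, so their presence here is background. In the lines below, read along the strand of the gene, capitals mark the matched letters and lower case the flanking bases.
HSPA5 ERSE, chr9:125241371-125241429, minus strand: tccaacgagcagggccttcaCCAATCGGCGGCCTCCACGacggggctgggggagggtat
HSP90B1 ERSE, chr12:103930196-103930254, plus strand: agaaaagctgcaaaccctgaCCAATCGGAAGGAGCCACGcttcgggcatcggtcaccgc
CALR ERSE on the reverse strand, chr19:12938364-12938422, plus strand: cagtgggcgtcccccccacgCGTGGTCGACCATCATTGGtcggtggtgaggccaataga
CANX ERSE, chr5:179698758-179698816, plus strand: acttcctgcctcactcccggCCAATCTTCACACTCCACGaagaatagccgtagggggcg
XBP1 ERSE, chr22:28800583-28800641, minus strand: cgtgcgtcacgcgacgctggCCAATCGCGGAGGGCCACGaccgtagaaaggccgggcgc
CRELD2 ERSE on the reverse strand, chr22:49918534-49918592, plus strand: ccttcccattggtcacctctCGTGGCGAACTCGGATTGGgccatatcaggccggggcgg
HYOU1 ERSE-II on the reverse strand, chr11:119057254-119057304, minus strand: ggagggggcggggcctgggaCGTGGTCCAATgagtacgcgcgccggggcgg
SDF2L1 ERSE-II on the reverse strand, chr22:21642094-21642144, plus strand: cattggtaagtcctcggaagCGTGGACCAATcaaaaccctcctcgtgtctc
HERPUD1 ERSE-II, chr16:56932005-56932055, plus strand: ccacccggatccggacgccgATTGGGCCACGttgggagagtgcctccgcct
TXNDC5 UPRE, chr6:7910142-7910189, minus strand: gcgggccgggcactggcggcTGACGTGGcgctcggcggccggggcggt

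ERSE was found in 8 of the 39 members with a promoter (20.5%), against 25 of 27305 genes with a promoter overall (0.0916%). The 8 were HSPA5, HSP90B1 with 2 sites, CALR, CANX, CRELD2, XBP1, PDIA6 and ERO1B. ERSE-II was found in HYOU1 with 2 sites, SDF2L1 and HERPUD1, against 0.0696% of all genes with a promoter. UPRE was found in HYOU1, TXNDC5, TXNDC11 and SEC62, against 0.927% of all genes with a promoter, and its site in HYOU1 overlaps an ERSE-II. CARE was found only in HERPUD1 among the members, against 4.46% of all genes with a promoter. Per promoter, the shares over all 35116 were 0.0769% for ERSE, 0.0541% for ERSE-II, 0.729% for UPRE and 3.62% for CARE, since some genes have several promoters. A match is a description of letters in a window and does not show that a factor binds there.

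The members were abundant in all 4 libraries. Their summed level was 2572 FPKM untreated and 2819 FPKM treated under the HepG2 label, and 2888 and 2332 FPKM in Huh7. As a share of all coding FPKM this was 0.729% and 0.825%, and 0.781% and 0.617%, so the treated library had the larger share under the HepG2 label and the smaller share in Huh7. The median member stood between 19.9 and 25.8 FPKM in each library, against 9.25 to 10.5 FPKM for all coding genes at 1 FPKM or more. CALR was the most abundant member in both untreated libraries and CANX in both treated ones, on the FPKM scale, which is per length.

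**Figure D1:**
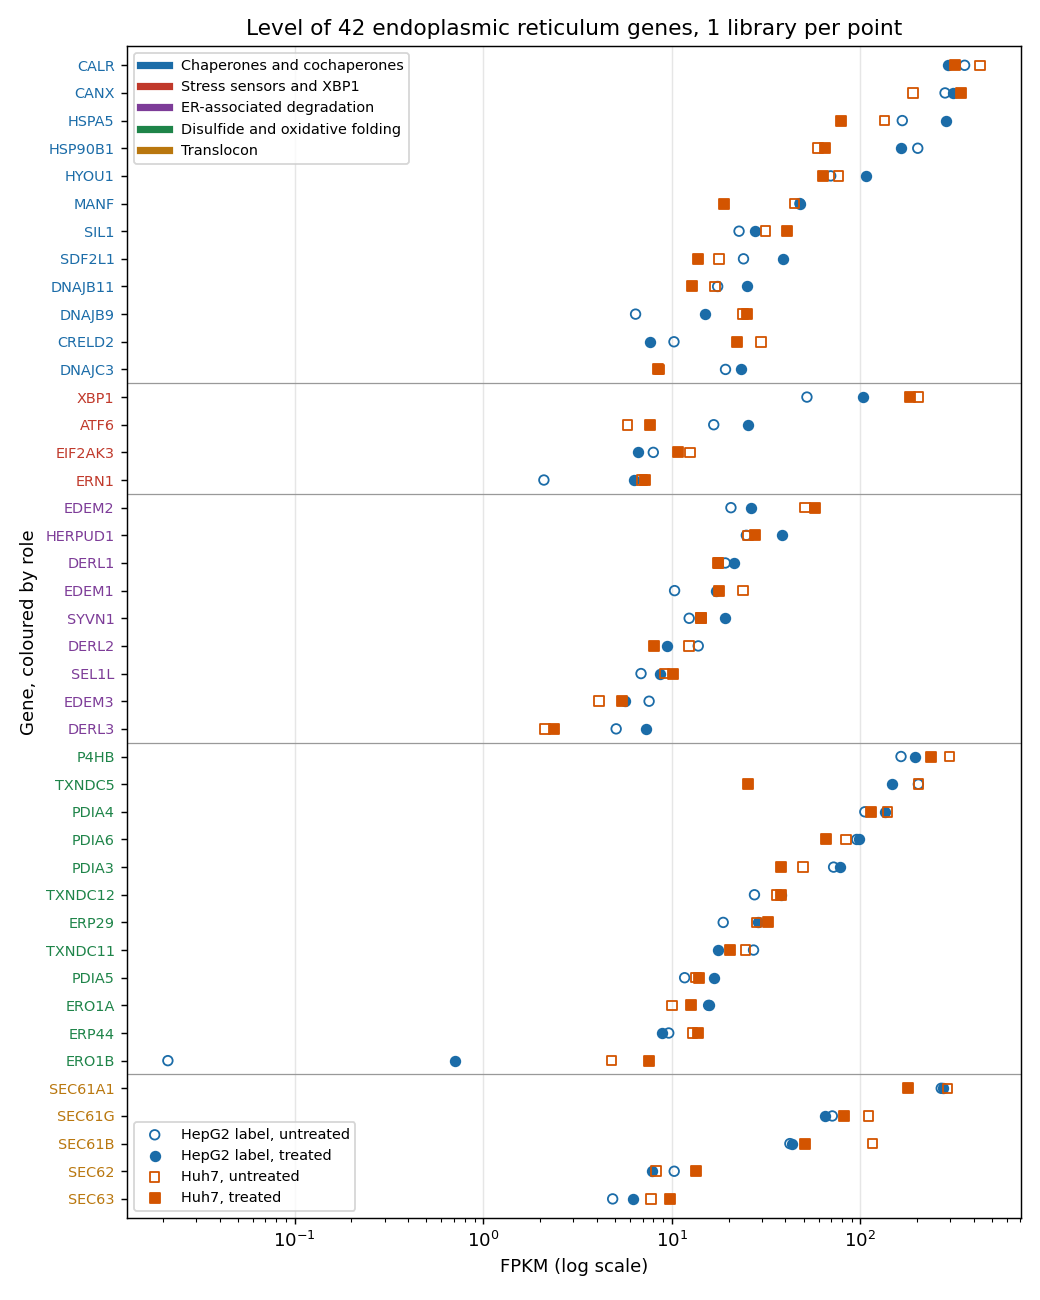
FPKM (log scale) of the 42 genes in each of the 4 libraries, 1 point per library, grouped and coloured by role and ordered by mean level within a role. TXNDC5 in treated Huh7 (25.4 FPKM) stands far below its other 3 points (148 to 204 FPKM), and ERO1B in the libraries labelled HepG2 (0.0213 and 0.707 FPKM) far below Huh7.

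Most members were somewhat higher in treated than in untreated cells labelled HepG2, while 23 of 42 were lower in treated than in untreated Huh7, most of them slightly. Ratios are log2((treated FPKM + 1)/(untreated FPKM + 1)), folds are on the same scale unless called plain, and genes at 1 FPKM or more in at least 1 library of the line were considered. Under the HepG2 label, 2 of 41 considered members were at least 2-fold higher, ERN1 and DNAJB9, against 6.7% of all genes considered, and 0 were at least 2-fold lower, against 2.43%. The median ratio of the members was 0.26 and 29 of 41 were above 0, against a median of 0.09 and 56.9% above 0 for all genes. In Huh7, 0 of 42 were at least 2-fold higher, against 3.88% of all genes, and 3 were at least 2-fold lower, TXNDC5, MANF and SEC61B, against 2.19%. The median of the members was −0.01 and 19 of 42 were above 0, against 0.10 and 58.8% for all genes. At 1.5-fold, 10 members were higher (19.2% of all genes) and 1 lower (8.76%) under the HepG2 label, and 2 were higher (15.4%) and 5 lower (7.63%) in Huh7. In bulk RNA, fewer cells of a type and less RNA per cell cannot be told apart.

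Among the chaperones, BiP itself took opposite directions in the lines. HSPA5, which encodes BiP, the main ER HSP70 (chr9:125234853-125241343, GRCh38, minus strand), stood at 167 FPKM untreated and 285 FPKM treated under the HepG2 label, and at 134 and 79.3 FPKM in Huh7. The treated library was thus the highest of the 4 in one line and the lowest of the 4 in the other. The ratios were 0.77 and −0.75. The plain fold was 1.71 higher (95% counting interval 1.68 to 1.74) under the HepG2 label and 1.69 lower (1.64 to 1.74) in Huh7; these exact intervals rest on inferred fragments and cover counting error only. Of the 10758 genes considered in both lines, 85 (0.79%) were at least 1.5-fold higher under the HepG2 label and at least 1.5-fold lower in Huh7, and HSPA5 was the 1 member among them. The reverse pair of directions held for 62 genes (0.576%) and 0 members. The difference between the lines was not tested.

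Of the partners that work directly with BiP, HYOU1, SDF2L1 and DNAJB11 had the same pair of directions as HSPA5, while DNAJB9, DNAJC3 and SIL1 had Huh7 ratios of 0.07, −0.03 and 0.37. MANF and SEC63, which also work with BiP and are described below, did not have the pair of directions of HSPA5. Their ratios were −0.01 and 0.30 under the HepG2 label and −1.20 and 0.30 in Huh7. HYOU1, a large HSP70 that exchanges the nucleotide of BiP, stood at 69.6 and 107 FPKM under the HepG2 label and at 76.4 and 63.6 FPKM in Huh7. SDF2L1, which holds the BiP cochaperone DNAJB11 in complex, stood at 24.0 and 39.1 FPKM, and in Huh7 at 17.9 and 13.8 FPKM. DNAJB11 stood at 17.5 and 25.2 FPKM, and in Huh7 at 16.9 and 12.7 FPKM, and shares 23.2% of its exonic bases with other genes. For these 3 the treated library was the highest of the 4 under the HepG2 label and the lowest of the 4 in Huh7, as for HSPA5, with ratios of 0.61, 0.68 and 0.50 against −0.26, −0.35 and −0.38. DNAJB9, a J-domain cochaperone that also holds IRE1 inactive (chr7:108569867-108574850, plus strand), stood at 6.43 and 15.0 FPKM under the HepG2 label and at 23.9 and 25.1 FPKM in Huh7. Its plain fold under the HepG2 label was 2.33 (2.08 to 2.62, counting only), and the treated level there was still below both Huh7 levels. DNAJC3, also called P58IPK, which brings clients to BiP, stood at 19.3 and 23.2 FPKM, and in Huh7 at 8.62 and 8.45 FPKM. SIL1, the other nucleotide exchange factor of BiP, was higher with treatment in both lines, at 22.7 and 27.8 FPKM, and in Huh7 at 31.5 and 40.9 FPKM.

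The other chaperones showed no common direction. MANF, a secreted ER protein that binds BiP (chr3:51385047-51389397, plus strand), stood at 47.8 and 47.6 FPKM under the HepG2 label and at 44.7 and 18.9 FPKM in Huh7. The first 3 libraries lay close together, and treated Huh7 was 2.36-fold lower on the plain scale than untreated Huh7 (2.13 to 2.62, counting only). CRELD2, an ER protein with disulfide isomerase activity, was lower with treatment in both lines, at 10.3 and 7.70 FPKM, and in Huh7 at 29.7 and 22.3 FPKM. HSP90B1, or GRP94, the HSP90 of the ER, stood at 202 and 165 FPKM, and in Huh7 at 59.5 and 65.3 FPKM, so that both Huh7 libraries were far below both others. The lectin chaperones differed from each other. CALR, or calreticulin, the soluble one, was lower with treatment in both lines, at 357 and 292 FPKM, and in Huh7 at 431 and 319.5 FPKM. CANX, or calnexin, its membrane-bound relative, stood at 281 and 312 FPKM, and in Huh7 at 190.4 and 340.3 FPKM. The Huh7 ratio of CANX, 0.83, was the highest of the 42 members in that line. Over the 12 chaperones the median ratio was 0.27 under the HepG2 label and −0.30 in Huh7. Under the HepG2 label 8 of 12 were above 0, against 56.9% of all genes. In Huh7 8 of 12 were below 0 and 4 above 0, against 58.8% of all genes above 0.

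In the group of sensors, IRE1 and XBP1 had ratios near or past 2-fold under the HepG2 label, where their untreated levels were below those in Huh7. In Huh7 their ratios were near 0. ERN1, which encodes IRE1alpha (chr17:64039142-64130819, minus strand), stood at 2.1 and 6.27 FPKM under the HepG2 label and at 6.93 and 7.23 FPKM in Huh7. The treated library labelled HepG2 thus came close to the Huh7 level, with a plain fold of 2.99 (2.40 to 3.76, counting only). XBP1, the transcription factor whose messenger IRE1 splices (chr22:28794555-28800597, minus strand), stood at 52.1 and 103 FPKM, and in Huh7 at 204 and 184 FPKM. Its ratio of 0.97 under the HepG2 label was just short of 2-fold, and was 1.02 when libraries were rescaled to the same sum. A value per gene does not separate spliced from unspliced XBP1. ATF6, the sensor cut in the Golgi, was higher with treatment in both lines, at 16.7 and 25.3 FPKM, and in Huh7 at 5.84 and 7.65 FPKM. EIF2AK3, which encodes PERK, was lower with treatment in both, at 7.98 and 6.62 FPKM, and in Huh7 at 12.5 and 10.7 FPKM. The median ratio of these 4 genes was 0.77 under the HepG2 label and −0.05 in Huh7.

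Of the 9 genes of ER-associated degradation, 7 were above 0 under the HepG2 label, against 56.9% of all genes. In Huh7, 5 of 9 were above 0, against 58.8% of all genes, and none reached 2-fold in either line. HERPUD1, a membrane protein that organises the HRD1 complex, stood at 24.9 and 38.5 FPKM, and in Huh7 at 25.4 and 27.5 FPKM. SYVN1, which encodes the ubiquitin ligase HRD1, stood at 12.4 and 19.1 FPKM, and in Huh7 at 14.3 and 14.2 FPKM. It shares 7.24% of its exonic bases with FAU on the same strand, which stood at 537 to 637 FPKM. Whether reads of FAU entered the SYVN1 values was not tested. SEL1L, the adaptor of HRD1, stood at 6.87 and 8.61 FPKM, and in Huh7 at 9.14 and 10.2 FPKM. The ligase and HERPUD1 had ratios of 0.59 and 0.61 under the HepG2 label and of 0.00 and 0.11 in Huh7. The EDEM proteins trim mannose from glycoproteins to mark them for disposal, and the 3 genes went different ways. EDEM1 stood at 10.4 and 17.1 FPKM, and in Huh7 at 23.9 and 17.8 FPKM. EDEM2 stood at 20.6 and 26.3 FPKM, and in Huh7 at 50.7 and 57.6 FPKM. EDEM3 stood at 7.58 and 5.66 FPKM, and in Huh7 at 4.11 and 5.43 FPKM. EDEM1 was thus higher under the HepG2 label and lower in Huh7, EDEM2 was higher in both and EDEM3 had the reverse of EDEM1. The Derlins form the channel through which failed protein leaves. DERL1 stood at 19.2 and 21.4 FPKM, and in Huh7 at 17.7 and 17.6 FPKM. DERL2 was lower with treatment in both lines, at 13.8 and 9.47 FPKM, and in Huh7 at 12.3 and 8.02 FPKM. DERL3 stood at 5.07 and 7.31 FPKM, and in Huh7 at 2.12 and 2.38 FPKM. DERL3 is uncertain, since 77.0% of its exonic bases are shared with SMARCB1 on the opposite strand and the labels do not say whether strand was kept. The median of the 9 was 0.34 under the HepG2 label and 0.11 in Huh7, where it was −0.01 when libraries were scaled by size factors.

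Among the 12 genes of disulfide formation, TXNDC5 had the lowest Huh7 ratio of all members. TXNDC5, a protein disulfide isomerase with several thioredoxin domains (chr6:7881517-7910814, minus strand), stood at 203 and 148 FPKM under the HepG2 label and at 204 and 25.4 FPKM in Huh7. The untreated libraries were nearly equal, and treated Huh7 was 8.03-fold lower on the plain scale than untreated Huh7 (7.44 to 8.66, counting only), a ratio of −2.96 beside −0.46 under the HepG2 label. The value is uncertain, since 60.6% of its exonic bases are shared with the read-through gene BLOC1S5-TXNDC5 on the same strand. No other member of the group reached 2-fold in Huh7. The 12 genes summed to 751.2 FPKM untreated and 780.9 FPKM treated under the HepG2 label, and to 903.3 and 616.9 FPKM in Huh7. The other 11 summed to 548.2 and 633.1 FPKM under the HepG2 label and to 699.5 and 591.5 FPKM in Huh7, so TXNDC5 made up more of the Huh7 difference than those 11 together.

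P4HB, PDIA3 and PDIA4 were slightly higher with treatment under the HepG2 label and lower in Huh7, unlike TXNDC5, which was lower in both lines. P4HB, the founding protein disulfide isomerase, stood at 164 and 194 FPKM, and in Huh7 at 297 and 236 FPKM. PDIA3, or ERp57, the partner of calnexin and calreticulin, stood at 72.1 and 78.1 FPKM, and in Huh7 at 49.7 and 37.8 FPKM. PDIA4, or ERp72, stood at 106 and 135 FPKM, and in Huh7 at 139.6 and 114 FPKM. All 3 had the same pair of directions, with Huh7 ratios between −0.39 and −0.29. PDIA6, which also regulates IRE1, stood at 95.7 and 98.9 FPKM, and in Huh7 at 83.8 and 65.5 FPKM, and the sign of its ratio under the HepG2 label changed with size factors. PDIA5, an isomerase linked to ATF6 activation, stood at 11.7 and 16.8 FPKM, and in Huh7 at 13.5 and 13.9 FPKM. PDIA6 shares 25.2% of its exonic bases with ATP6V1C2, which was under 1 FPKM in all 4 libraries. The thioredoxin-like proteins had Huh7 ratios between −0.27 and 0.19. ERP29, a thioredoxin-fold chaperone without an active disulfide site, stood at 18.7 and 28.8 FPKM, and in Huh7 at 28.2 and 32.4 FPKM. ERP44, which retains client proteins at the ER-Golgi boundary, stood at 9.64 and 8.88 FPKM, and in Huh7 at 12.9 and 13.7 FPKM. TXNDC12, or ERp18, stood at 27.4 and 38.2 FPKM, and in Huh7 at 35.9 and 37.7 FPKM. TXNDC12 is uncertain, with 49.7% of its exonic bases shared with other genes. TXNDC11, a membrane isomerase linked to ER-associated degradation, stood at 27.1 and 17.7 FPKM, and in Huh7 at 24.6 and 20.3 FPKM, and was the 1 member at least 1.5-fold lower under the HepG2 label. Neither oxidase that recharges the isomerases reached 1.5-fold where it was considered, though the plain fold of ERO1B in Huh7 was 1.58 (1.42 to 1.76, counting only). ERO1A, the widely expressed oxidase, stood at 15.7 and 15.8 FPKM, and in Huh7 at 10.0 and 12.7 FPKM. ERO1B, its relative found mostly in secretory tissue, stood at 0.0213 and 0.707 FPKM, and in Huh7 at 4.78 and 7.55 FPKM, below the minimum in both libraries labelled HepG2. The median of the group was 0.11 under the HepG2 label and −0.11 in Huh7, where it was 0.05 without the members that share 20% or more of their exonic bases with another gene.

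The 3 subunits of the SEC61 channel were all lower in treated Huh7 while the 2 accessory proteins were higher. SEC61A1, the pore subunit, stood at 269 and 275 FPKM under the HepG2 label and at 289 and 179 FPKM in Huh7. SEC61B, a small tail-anchored subunit (chr9:99222064-99240942, plus strand), stood at 42.3 and 43.2 FPKM, and in Huh7 at 116 and 50.7 FPKM. SEC61G, the other small subunit, stood at 71.0 and 64.6 FPKM, and in Huh7 at 111 and 81.8 FPKM. The Huh7 ratios of these subunits were −0.69, −1.18 and −0.43, beside 0.04, 0.03 and −0.13 under the HepG2 label, where the signs for SEC61A1 and SEC61B changed with size factors. SEC61B in treated Huh7 was close to its level under the HepG2 label, and its plain fold in Huh7 was 2.29 lower (2.09 to 2.51, counting only). SEC62, which helps short precursors enter after translation, stood at 10.3 and 7.83 FPKM, and in Huh7 at 8.27 and 13.4 FPKM. SEC63, a J-domain protein that recruits BiP to the channel, stood at 4.86 and 6.23 FPKM, and in Huh7 at 7.74 and 9.79 FPKM. SEC62 and CANX were the members at least 1.5-fold higher in Huh7. The median over the 5 was 0.03 under the HepG2 label, with −0.03 under size factors, and −0.43 in Huh7.

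**Figure D2:**
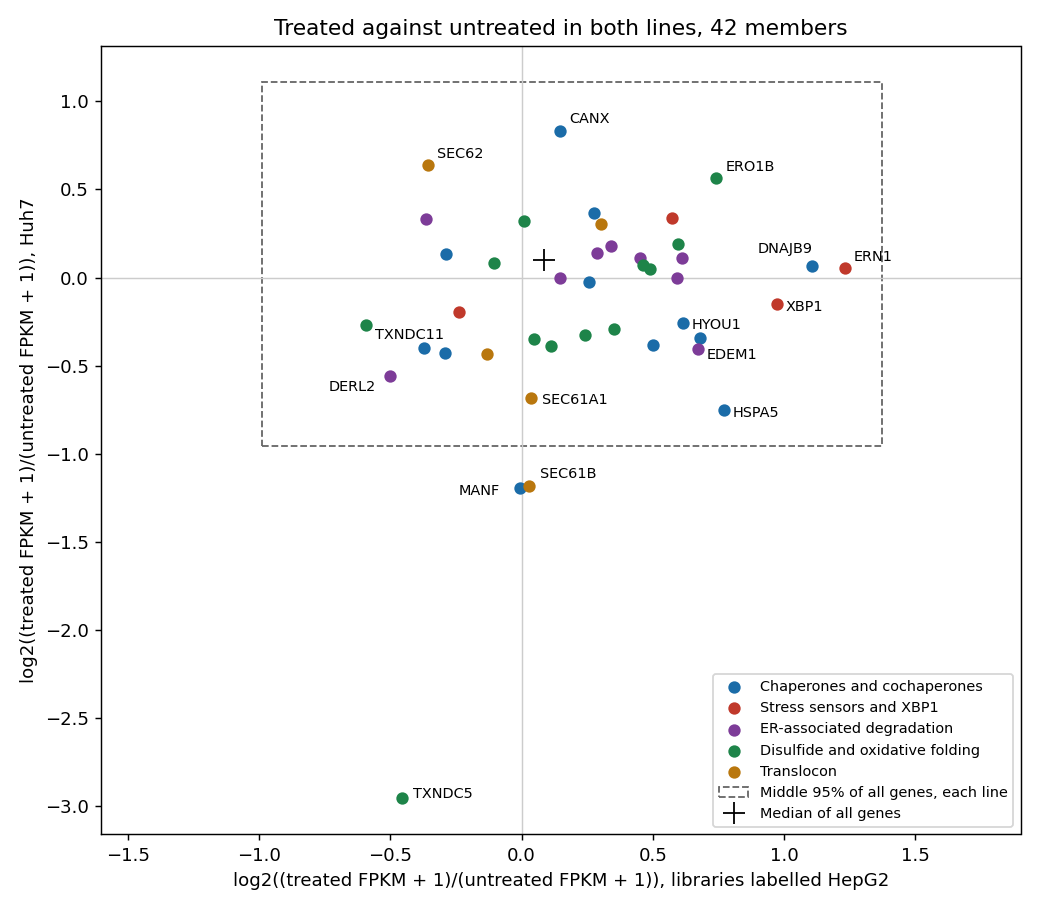
Treated against untreated log2 ratio of each of the 42 genes in the libraries labelled HepG2 (horizontal axis) and in Huh7 (vertical axis), coloured by role, with the box holding the middle 95% of all genes in each line and the cross their medians. ERO1B is drawn although it was under 1 FPKM in both libraries labelled HepG2; TXNDC5, MANF and SEC61B lie below the box and HSPA5 at 0.77 and −0.75.

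Set against each other, the 2 lines differed in the same direction for most members. The Huh7 ratio minus the ratio under the HepG2 label was below 0 for 31 of 41 members, against 48% of the 10758 genes considered in both lines, and at −1 or less for 9 members, against 5.7%. It was 1 or more for 0 members, against 4.72%. At 1.5-fold, 14 members had a Huh7 ratio below that under the HepG2 label, against 14.4% of all genes, and 3 above, against 16.1%. The median difference was −0.39 for the members and 0.03 for all genes. The 9 were TXNDC5 (−2.50), HSPA5 (−1.52), SEC61B (−1.21), MANF (−1.19), ERN1 (−1.18), XBP1 (−1.12), EDEM1 (−1.08), DNAJB9 (−1.04) and SDF2L1 (−1.03). They fall into those lower in Huh7 with little difference under the HepG2 label (SEC61B and MANF), those higher under the HepG2 label with little difference in Huh7 (ERN1, DNAJB9 and XBP1), and those that went opposite ways (HSPA5, EDEM1 and SDF2L1), while TXNDC5 was lower in both. The highest differences were those of SEC62 (0.99), EDEM3 (0.70) and CANX (0.69). With 1 library per group these differences have no test.

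Members with an ERSE or ERSE-II in the promoter did not move as one. Under the HepG2 label, 5 of 10 considered were at least 1.5-fold higher (XBP1, HSPA5, SDF2L1, HYOU1 and HERPUD1), against 19.2% of all genes, and 3 were below 0 (HSP90B1, CALR and CRELD2). All 3 members with the shorter ERSE-II, shown above for HYOU1, SDF2L1 and HERPUD1, were among the 5, and of the 7 considered with ERSE, XBP1 and HSPA5 were. This depends on the scaling. Under size factors the ratios of HYOU1 and HERPUD1 were 0.56 and 0.55, below 1.5-fold, and that of SDF2L1 was 0.62. The median ratio was 0.38 over these 10 and 0.27 over the 28 considered members with a promoter and neither element, of which 5 were at least 1.5-fold higher. In Huh7 the medians were −0.26 over 11 and 0.02 over 28. ERN1 and DNAJB9, the 2 members past 2-fold under the HepG2 label, have neither element in the window. These are counts of small groups, given as a description.

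**Figure D3:**
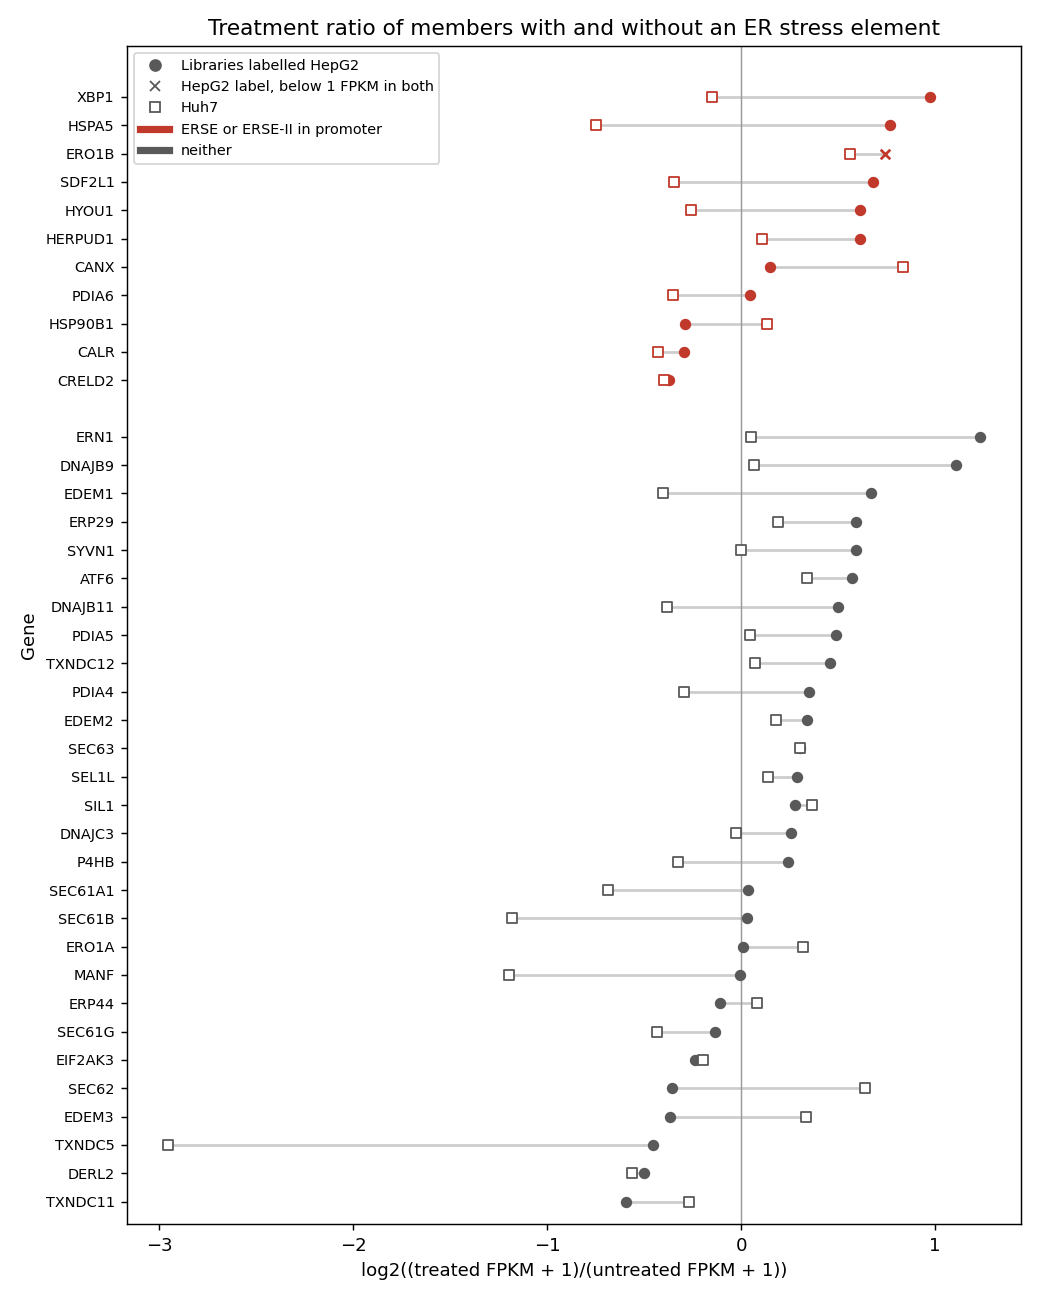
Treated against untreated log2 ratio of the 39 members with a RefSeq promoter, with filled circles for the libraries labelled HepG2 and open squares for Huh7, split into members with an ERSE or ERSE-II (red) and with neither (grey); the cross marks ERO1B, under 1 FPKM in both libraries labelled HepG2. In the upper group the circles run from −0.37 (CRELD2) to 0.97 (XBP1) and the squares from −0.75 (HSPA5) to 0.83 (CANX).

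Before treatment, single members differed between the lines, but the members as a group did so in shares near or below those of all genes. In untreated Huh7 against the untreated library labelled HepG2, 8 of 42 members (19%) were at least 2-fold higher, against 17.5% of all genes, and 3 (7.14%) at least 2-fold lower, against 17.2%. The higher ones were ERO1B, XBP1, DNAJB9, CRELD2, SEC61B, ERN1, EDEM2 and EDEM1, and the lower ones HSP90B1, ATF6 and DNAJC3. XBP1 was 3.91-fold higher on the plain scale (3.70 to 4.14, counting only) and ERN1 3.30-fold higher (2.68 to 4.13), while ATF6 stood at 5.84 FPKM against 16.7 FPKM. HSP90B1 was 3.39-fold lower (3.21 to 3.57). ERO1B rested on very few fragments under the HepG2 label, so its plain fold of 225 has a counting interval from 77.4 to 2320. At 1.5-fold, 10 members were higher (26.2% of all genes) and 6 lower (29.2%). The median over the members was 0.16, against −0.06 for all genes. This comparison shares both untreated libraries with the treatment ratios, so a high untreated level in Huh7 enters both.

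**Figure D4:**
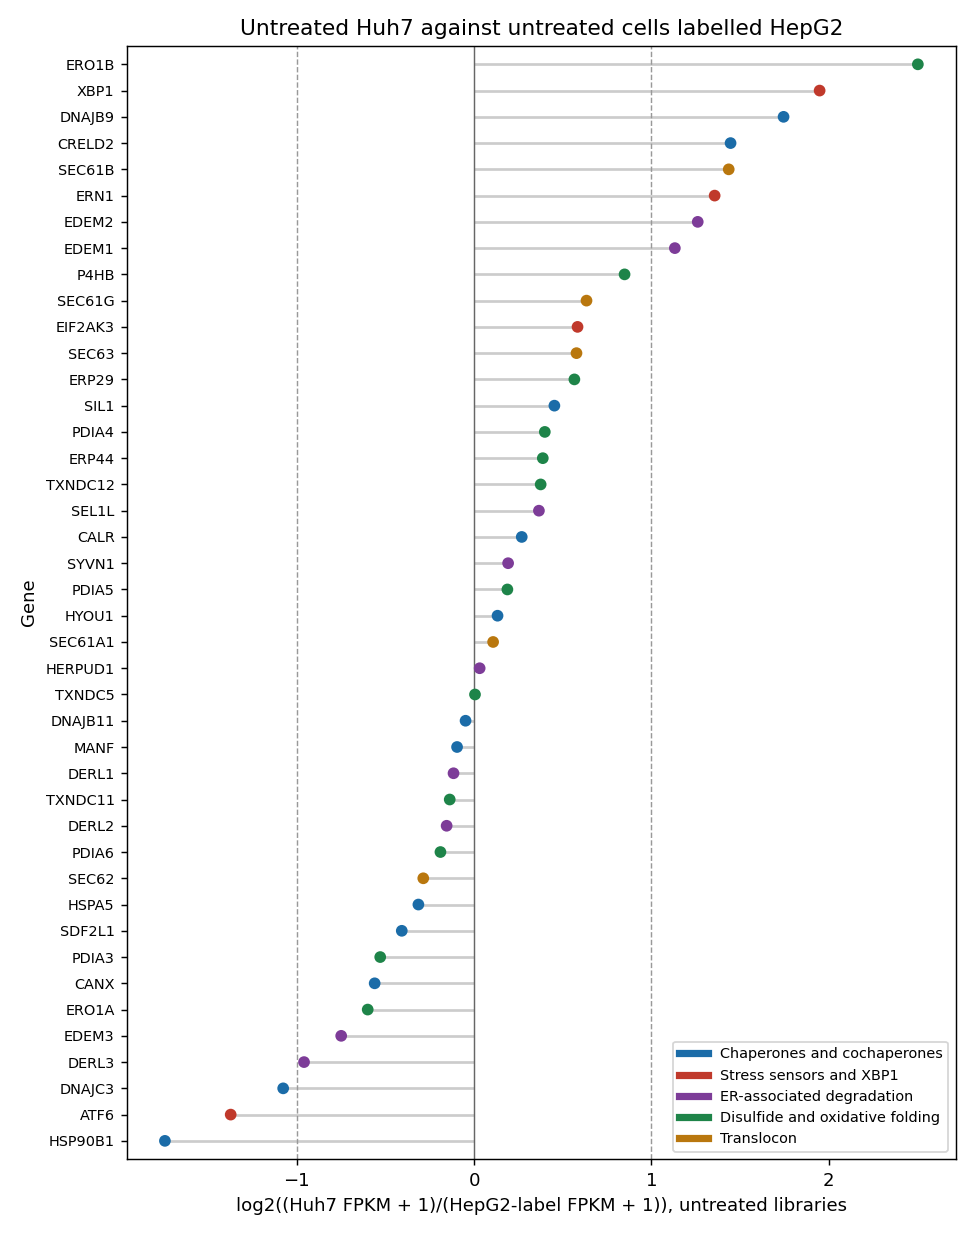
Log2 ratio of untreated Huh7 to the untreated library labelled HepG2 for each of the 42 genes, coloured by role, with dashed lines at 2-fold. The points run from −1.74 (HSP90B1) to 2.50 (ERO1B).

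Around the 42 genes, 125 other genes of the ER were grouped into 9 lists by function. At least 2-fold higher were 12 of 122 considered under the HepG2 label, against 6.7% of all genes, and 7 of 121 in Huh7, against 3.88%. At least 2-fold lower was 1 in each line, against 2.43% and 2.19%. The medians were 0.07 and 0.00. In the PERK-ATF4 arm, 6 of 8 were higher under the HepG2 label and 1 of 8 in Huh7, with medians of 1.87 and 0.32. ATF4, the transcription factor of the arm, stood at 85.6 and 229 FPKM, and in Huh7 at 132 and 202 FPKM. DDIT3, or CHOP, stood at 6.30 and 34.2 FPKM, and in Huh7 at 11.8 and 13.7 FPKM. CHAC1, which breaks down glutathione, stood at 1.34 and 24.7 FPKM, and in Huh7 at 2.08 and 6.73 FPKM, and was the 1 gene of the arm past 2-fold in Huh7. TRIB3, a pseudokinase that restrains the arm, stood at 42.8 and 212 FPKM, and in Huh7 at 178 and 253 FPKM. ASNS, asparagine synthetase, stood at 27.4 and 162 FPKM, and in Huh7 at 134 and 182 FPKM. PPP1R15A, or GADD34, which returns eIF2alpha to its unphosphorylated form, stood at 12.7 and 37.0 FPKM, and in Huh7 at 32.9 and 37.8 FPKM. For all 6 genes the untreated Huh7 level lay above the untreated level under the HepG2 label. PPP1R15B stood at 44.3 and 39.5 FPKM, and in Huh7 at 20.9 and 16.1 FPKM, and ATF3 at 3.55 and 3.34 FPKM, and in Huh7 at 3.85 and 3.44 FPKM, so both were slightly lower with treatment.

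The ER-phagy receptors, which deliver pieces of ER to lysosomes, had 2 of 6 at least 2-fold higher under the HepG2 label and 3 of 5 in Huh7. The shares of all genes were 6.7% and 3.88%. The medians of this small list were 0.09 and 1.32. CALCOCO1 was higher in both lines, at 3.81 and 11.4 FPKM, and in Huh7 at 4.27 and 12.8 FPKM. RTN3 stood at 70.5 and 61.4 FPKM, and in Huh7 at 14.7 and 54.8 FPKM, and CCPG1 at 11.4 and 13.7 FPKM, and in Huh7 at 3.43 and 10.1 FPKM. Both were low in untreated Huh7 and below the other line after treatment. Among other stress transducers, 2 of 9 and 2 of 10 were higher, against the same shares of all genes. CREB3L4, an ER-anchored transcription factor, stood at 6.87 and 15.1 FPKM, and in Huh7 at 4.90 and 12.4 FPKM. WFS1, an ER membrane protein mutated in Wolfram syndrome, stood at 5.99 and 13.9 FPKM, and in Huh7 at 8.99 and 19.0 FPKM.

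The lists closest to the members in function held few genes past 2-fold. Over all genes, 6.7% were at least 2-fold higher and 2.43% lower under the HepG2 label. In Huh7 these shares were 3.88% and 2.19%. Signal recognition and signal peptidase had 0 of 13 past 2-fold under the HepG2 label and 1 of 13 lower in Huh7, SRP9, a subunit of the signal recognition particle, at 49.4 and 96.2 FPKM, and in Huh7 at 351 and 92.4 FPKM. Translocon-associated genes had 0 of 7 in both lines, and degradation machinery 0 of 18 in both. N-glycosylation had 1 of 16 higher under the HepG2 label, the oxidoreductase subunit MAGT1 (22.6 and 49.3 FPKM), and 0 of 15 in Huh7. Other folding enzymes and calcium-binding proteins had 1 of 24 higher, SDF4 (18.2 and 40.8 FPKM), and 1 lower, the peroxidase GPX8 (18.2 and 5.89 FPKM), under the HepG2 label, and 0 of 24 in Huh7. Export to the Golgi and retrieval had 0 of 21 under the HepG2 label and 1 of 21 higher in Huh7, the cargo receptor MIA3, at 5.94 and 13.4 FPKM.

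**Figure D5:**
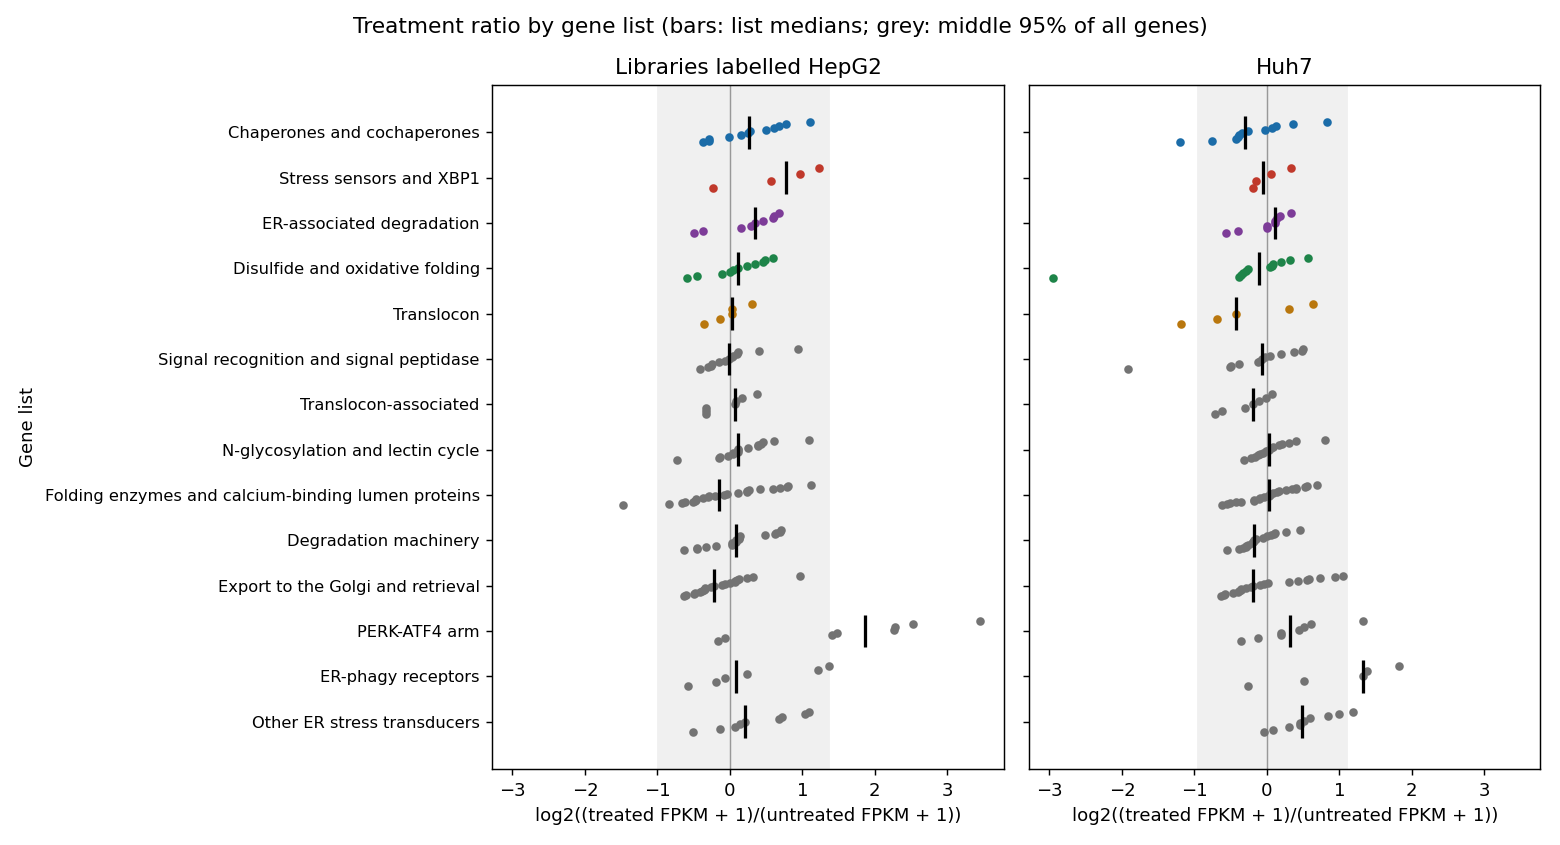
Treated against untreated log2 ratio of each gene in the 5 role groups of the members (coloured) and the 9 other ER lists (grey points), with a bar at each list's median and a shaded band for the middle 95% of all genes. The PERK-ATF4 arm has its median at 1.87 in the libraries labelled HepG2 and at 0.32 in Huh7.

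The lines are the only repeat of the treatment, and a test of a shared response called no gene in its main setting. limma, with cell line as a block, called 0 of 13030 genes at an adjusted p under 0.05 (0% of genes), and 0 of the 42 members. At an unadjusted p under 0.05, 1534 genes (11.8%) and 1 member passed. Under 3 other settings, a minimum of 5 FPKM, rescaled sums and size factors, limma called 1, 1 and 3 genes, none of them a member. That member was TXNDC5, lower in both lines, with a limma estimate of −1.71 (SE 0.50) and an adjusted p of 0.289, between 0.251 and 1 over the other settings. HSPA5 had an estimate of 0.01 (SE 0.34), since its ratios had opposite signs. The test has 1 residual degree of freedom and asks whether the lines agreed, not whether repeat cultures would. With so little to estimate spread from, 0 calls do not show that no response was shared.

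The authors' deposited table of KEGG pathways places few of these genes among those they listed. For the cells labelled HepG2 the authors' deposited table counts 15 of 168 genes of protein processing in the ER (p = 0.999, corrected p of 1.0), with ERN1 and ERO1B as the members listed. For Huh7 the authors' deposited table counts 11 of 168 (p = 0.999), with TXNDC5 and SEC61B, and for protein export 3 of 23 (p = 0.655), with SEC61B. In the authors' deposited table of Gene Ontology terms, response to ER stress held 27 of 169 genes under the HepG2 label (p = 0.340) and 11 of 169 in Huh7 (p = 0.985), each with a corrected p of 1.0. The same 4 members were the only ones in the authors' deposited table of Gene Ontology genes, which lists 3213 genes for the first line and 2438 for Huh7. HSPA5, DNAJB9 and MANF were in neither list. The rule behind these gene lists was not given in the sources used here.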

How the data were processed

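The 4 RNA libraries were made from 1 µg of Trizol-extracted RNA with a TruSeq kit, per the labels' protocols. The authors deposited FPKM per coding gene and per long noncoding transcript, and enrichment tables with p-values and other numbers such as gene counts, per the file headers. GATK, HISAT2, Bowtie2 2.2.8, SAMtools 0.1.18, StringTie 1.3.1, Picard 1.96 and Cuffdiff 2.1.1 are named in the submitters' processing notes without roles. Build and annotation: both not given in the sources used here. Coordinates are read as GRCh38, since among 19664 genes with a GENCODE 29 identifier the position overlapped for 99.84%.

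FPKM are not counts, so ratios of FPKM + 1 were computed without a count model, over genes at 1 FPKM or more in at least 1 library compared, and genes past 2-fold were counted. Depth was inferred from FPKM steps of genes with 1 transcript (25700000, 23200000, 26400000 and 22900000 fragments); 1 kb at 1 FPKM then rests on 26 or 23 fragments, with 95% Poisson intervals of 17.0 to 38.1 and 14.6 to 34.5. Counting intervals for folds are exact (Clopper-Pearson), use the shortest coding transcript and ignore how reads were assigned. limma 3.58.1 (R 4.3.3, Python 3.11.15) fitted log2(FPKM + 1) with a trend, blocked by line, with treatment as tested term, with Benjamini-Hochberg adjustment. The pairing by line comes from the labels. On simulated data for that comparison, limma recovered 100 of 100 genes at a log2 fold of 2 and 100 of 100 at 4. Beside these recovered genes it made 22 false calls, in 13030 genes. The planted folds were alike in both lines and larger than the estimate of any member, the largest being −1.71 for TXNDC5. They were planted only in the more abundant genes. Recovery at the sizes of the members, or at low levels, was therefore not tested.

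Every member is named whatever its value. Of each other list, up to 3 genes past 2-fold and at 5 FPKM or more in the line are named, and the whole PERK-ATF4 arm. The members and lists were chosen with earlier results of these data known. Alternatives were a pseudocount of 0.1, no minimum or 5 FPKM, rescaled sums, median-of-ratios size factors, 1.5-fold, and limma without trend or block; leaving out members that share 20% or more of their exonic bases, and all alternatives for the difference between lines, were added after seeing the data. Protein sequences were not analysed here.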

Additional observations from a re-analysis of the deposited data

Results flagged for a closer look

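HSPA5 had a log2 ratio of 0.77 in the libraries labelled HepG2 and of −0.75 in Huh7, so that the only library pair of each line went the opposite way from the other. The difference between the lines was not tested.

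A pair of noncoding transcripts, each the 1 listed for its gene, inside the HERPUD1 gene, on its strand, was outside the coding comparison and stood higher after treatment. The spans of the pair overlap each other, so they are not independent observations. The share of all noncoding transcripts past 2-fold is not given here. AC012181.2 had a log2 ratio of 1.07 in the libraries labelled HepG2, from 1.45 to 4.15 FPKM, and went from 1.28 to 2.90 FPKM in Huh7. AC012181.1 had a log2 ratio of 1.36 in the libraries labelled HepG2, from 1.20 to 4.66 FPKM, and went from 1.62 to 3.73 FPKM in Huh7. HERPUD1 itself stood at 24.9 and 38.5 FPKM under the HepG2 label and at 25.4 and 27.5 FPKM in Huh7, and whether reads of the gene entered these transcripts was not tested.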

How the results depend on the processing

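At 1.5-fold in place of 2-fold, 10 members were higher and 1 lower in the libraries labelled HepG2, 2 were higher and 5 lower in Huh7, and 6 were lower in untreated Huh7 against the untreated library labelled HepG2; 14 members had a Huh7 ratio at least 1.5-fold below that under the HepG2 label (14.4% of all genes) and 3 at least 1.5-fold above (16.1%). Median-of-ratios size factors moved the median of all genes in Huh7 from 0.102 to −0.002 and of the members to −0.125, and the members' median between untreated lines to 0.263. They also moved the genes past 2-fold from 464 higher and 261 lower to 336 and 340 in Huh7, and from 794 and 288 to 697 and 334 under the HepG2 label. Under size factors HYOU1, HERPUD1, SYVN1 and ERP29 fell below 1.5-fold higher under the HepG2 label, at ratios of 0.56, 0.55, 0.54 and 0.54. ATF6 went the other way with rescaled sums, to 0.62. With rescaled sums, 3 members were at least 2-fold higher under the HepG2 label, XBP1 having a ratio of 1.02. With a pseudocount of 0.1, 1 member had a Huh7 ratio at least 2-fold above that under the HepG2 label (0 at a pseudocount of 1). Without members that share exons, the median difference between lines was −0.29. limma called 1 gene with a minimum of 5 FPKM, 1 with rescaled sums and 3 with size factors, and 0 members under every setting run. Signs changed in at least 1 setting for 5 of 41 members under the HepG2 label (MANF, PDIA6, ERO1A, SEC61A1 and SEC61B) and 6 of 42 in Huh7 (DNAJB9, ERN1, HERPUD1, PDIA5, TXNDC12 and ERP44), all with ratios near 0. Smaller counts at 2-fold follow from the higher threshold; the cause of the other moves was not tested. The limma fit pairs the libraries by cell line, and without that block it also called 0 genes. The labels carry no replicate numbers to pair by, and with 1 library per group none could be left out. The depth limits low members such as ERO1B.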

Other observations

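AP003392.3, a noncoding transcript on the strand opposite HYOU1, stood at 3.86 and 7.64 FPKM untreated and treated under the HepG2 label, and at 5.37 and 2.97 FPKM in Huh7. Its log2 ratios of 0.83 and −0.68 had the same pair of signs as those of HYOU1, 0.61 and −0.26. Other noncoding transcripts did not follow the member they overlap. SNHG4-202, on the strand opposite SIL1, went from 11.9 to 1.54 FPKM under the HepG2 label and from 1.55 to 2.47 FPKM in Huh7. The other SNHG4 transcripts listed over SIL1 were lower with treatment in both lines, while SIL1 had ratios of 0.28 and 0.37. The labels do not say whether strand was kept, so reads from the overlapping genes cannot be told apart.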
